A study of Homo sapiens with 12 samples.

Results

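Cysteine as the last amino acid before a premature stop codon was examined in 2 libraries of reporter mRNAs. Each reporter variant is a window of 10 bases with 6 random bases, a stop codon or TGG at bases 7 to 9, and 1 random base after it. The members are the variants with TAA, TAG or TGA at bases 7 to 9, a cysteine codon (TGT or TGC) at bases 4 to 6 and no stop codon at bases 1 to 3. The EJC-independent table lists 1025 of them among 41955 variants, which is 70.0% of the 1464 possible cysteine variants, and the EJC-enhanced table lists 1233 among 51306, or 84.2%. A mean normalized count of 10 or more was reached by 1013 and 1229 of these, and all values below refer to them. The same contexts with TGG, the codon for tryptophan, in place of the stop codon served as controls and gave 366 and 447 variants past that minimum. Both tables list 931 of the 1327 cysteine variants found in either.

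The cells were HEK293T, an established line from human embryonic kidney that is easily transfected. They were wild type apart from the reporter library, which Cre-Lox recombination had placed at a single genomic site. The 4 groups were EJC-independent with SMG1i, EJC-independent with DMSO, EJC-enhanced with SMG1i and EJC-enhanced with DMSO, with 3 libraries in each and 12 in all. SMG1i, an inhibitor of the kinase SMG1, was present at 0.5 µM for the 24 hours before harvest, and DMSO, its vehicle, for the same time. Where in the genome this site lies is not stated in the sources used here. The labels do not say whether replicate libraries came from separate cultures, and the deposited tables hold 1 comparison per variant with no value per library. Every error and p-value of the fits and codon exchanges below therefore describes the spread between sequence contexts in the same libraries. Deposited standard errors and adjusted p-values are those of the authors' comparison of SMG1i with DMSO libraries for single variants.

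Nonsense-mediated decay degrades mRNAs on which translation ends early. The kinase SMG1 phosphorylates the helicase UPF1 at such terminations, which commits the mRNA to decay, and an exon junction complex left downstream of the stop codon strengthens the process. At a stop codon the release factor eRF1 enters the ribosome and the bond between the finished peptide and the last tRNA is hydrolysed, so the last amino acid of the peptide sits at the site of this reaction. Cysteine carries a thiol where serine carries a hydroxyl on an otherwise equal side chain. Its codons, TGT and TGC, lie 1 base from the stop codon TGA and from the tryptophan codon TGG, and their neighbours by the middle base are TCT and TCC for serine, TAT and TAC for tyrosine, and TTT and TTC for phenylalanine.

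The context with proline CCC ahead of the cysteine codon and C after the stop codon is shown because it had the deepest coverage of the 72 contexts that are complete for both cysteine codons, all stop codons and TGG in both tables. Its lowest mean normalized count was 1163. Capitals mark the last codon, which is cysteine in the first 8 lines and serine in the rest.
TGT before TAA: cccTGTtaac
TGT before TAG: cccTGTtagc
TGT before TGA: cccTGTtgac
TGT before TGG: cccTGTtggc
TGC before TAA: cccTGCtaac
TGC before TAG: cccTGCtagc
TGC before TGA: cccTGCtgac
TGC before TGG: cccTGCtggc
TCT before TAA: cccTCTtaac
TCT before TAG: cccTCTtagc
TCT before TGA: cccTCTtgac
TCC before TAA: cccTCCtaac
TCC before TAG: cccTCCtagc
TCC before TGA: cccTCCtgac

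The measure throughout is the response, the log2 ratio of reporter RNA under SMG1i to RNA under DMSO, so that a larger response means more RNA when SMG1 is inhibited. It is the log2 fold change of the authors' deposited table with its sign reversed, since the table does not name the numerator and stop variants are negative in it. For the EJC-independent reporter, the authors' deposited table has a response of 1.61 for cccTGTtaac, 1.44 for cccTGTtagc and 1.79 for cccTGTtgac. With TGC the same table gives 1.45 for cccTGCtaac, 1.55 for cccTGCtagc and 1.89 for cccTGCtgac in the authors' deposited values. The TGG controls stood near 0, at 0.12 for cccTGTtggc and -0.06 for cccTGCtggc in the authors' deposited table. The deposited standard errors of these 8 values run from 0.0509 to 0.133. TGA gave the highest response behind either cysteine codon in this context.

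Serine in the same place gave higher values in that reporter. The authors' deposited table lists 1.87 for cccTCTtaac, 1.84 for cccTCTtagc and 2.07 for cccTCTtgac. For TCC the authors' deposited table lists 1.74 before TAA, 1.84 before TAG and 1.96 before TGA. AGT and AGC, the serine codons that differ from cysteine in the first base, have 2.04 and 1.83 before TAA, 1.79 and 1.87 before TAG and 2.44 and 1.94 before TGA in the authors' deposited table. Each cysteine stop variant of the set lay under both serine counterparts with the same last base of the codon and the same stop codon. Before TGG the authors' deposited table gives 0.09 for cccTCTtggc, against 0.12 for its TGT counterpart. For cccTCCtggc the authors' deposited table gives 0.25 (adjusted p = 7.53e-11), against -0.06 for cccTGCtggc. The TGG controls of TGC and TCC were further apart than the variants with any of the 3 stop codons. Relative to its own control TGC therefore lay below TCC before none of the 3. In the authors' deposited table the TGG controls were -0.13 for AGT and -0.08 for AGC. Relative to its own control, TGT stayed below TCT and AGT, and TGC below AGC, before each stop codon. For the EJC-enhanced reporter, the authors' deposited table has 2.62, 2.26 and 2.57 for TGT and 2.45, 2.11 and 2.60 for TGC before TAA, TAG and TGA. The serine counterparts in that authors' deposited table are 2.29, 2.16 and 2.09 for TCT and 2.21, 2.17 and 2.22 for TCC. There the cysteine value was above that of TCT or TCC in every pair except TGC against TCC before TAG, with deposited standard errors of the 6 cysteine values between 0.254 and 0.347. Against AGT the order was mixed, since the authors' deposited table has 1.96 for cccAGTtaac, under TGT, but 2.75 for cccAGTtagc and 2.78 for cccAGTtgac, both above TGT. For AGC the authors' deposited table has 2.28, 1.97 and 2.34 before TAA, TAG and TGA, each under its TGC counterpart. The TGG controls with cysteine stood at -0.06 and 0.09 in the authors' deposited table of this reporter. Those with serine in the same authors' deposited table stood at 0.11 for TCT, 0.20 for TCC, 0.11 for AGT and -0.03 for AGC. Relative to its own control, TGC lay above TCC before TAG as well.

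With the sign reversed as described above, RNA with a stop codon behind cysteine was more abundant under SMG1i in nearly every context. This direction, here and in the counts of variants called higher or lower, rests on that choice and is not a separate result. In the EJC-independent reporter the cysteine variants had a mean response of 1.54 ± 0.61 (SD over 1013 variants), which is 2.91-fold, and the cysteine TGG controls averaged -0.05 ± 0.59 (SD over 366 variants). Cysteine variants of the EJC-enhanced reporter averaged 2.28 ± 0.78 over 1229 stop variants, or 4.87-fold, and 0.01 ± 0.56 over 447 TGG controls. From the 5th to the 95th percentile the cysteine stop variants ran from 0.57 to 2.54 in the EJC-independent reporter and from 1.02 to 3.52 in the EJC-enhanced reporter. Part of this width is error of single variants, since the root mean square of their deposited standard errors was 0.553 and 0.676. Over the 127 cysteine variants of the EJC-independent reporter counted at 1000 or above, the SD of the response was 0.207.

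By an adjusted p under 0.05 in the authors' deposited table, 820 of 1012 cysteine stop variants with a p were higher under SMG1i in the EJC-independent reporter, or 81.0%, against 84.9% of all 28953 stop variants. For the EJC-enhanced reporter the authors' deposited table calls 1047 of 1224 cysteine variants higher, or 85.5%, against 86.1% of all 34354. At an adjusted p under 0.01 in the authors' deposited table, 726 and 936 of these cysteine variants were higher, or 71.7% and 76.5%, against 77.5% and 77% of all stop variants. At 0.05 the authors' deposited table calls 0 of them lower in either reporter, where the background is 0.0104% and 0.00291%. Among the TGG controls with cysteine, the authors' deposited table calls 12 higher and 13 lower of 366 in the EJC-independent reporter (background 4.09% and 4.03%), and 15 higher and 6 lower of 447 in the EJC-enhanced reporter (2.76% and 1.38%). Cysteine variants were counted less deeply, with a median mean count of 218 against 247 for other last codons in the EJC-independent reporter and 126 against 144 in the EJC-enhanced reporter. The part of this depth in the shares called was not tested.

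Stop variants were also paired with the TGG variant of the same random bases and the same base after the stop codon. In 840 such pairs of the EJC-independent reporter, cysteine stop variants averaged 1.52 and their TGG partners -0.05. The difference was 1.57 (95% interval 1.50 to 1.64, adjusted p = 1.84e-71 in the linear fit), and 96.4% of pairs had the stop variant higher. In 1177 pairs of the EJC-enhanced reporter the means were 2.29 and 0.01, the difference was 2.27 (2.20 to 2.35, adjusted p = 1.47e-90), and 98.6% of pairs had the stop variant higher. Split by stop codon, the difference in the EJC-independent reporter was 1.70 before TGA, 1.56 before TAA and 1.45 before TAG. The same order gave 2.29, 2.27 and 2.26 in the EJC-enhanced reporter.

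Whether cysteine differed from the other 19 amino acids was asked in a linear fit over all stop variants of a reporter, with the penultimate codon, last codon, stop codon and following base as terms. Cysteine variants responded less than the rest in the EJC-independent reporter, and no difference passed the test in the EJC-enhanced one. The mean of the 2 cysteine codons minus the mean of the other 59 sense codons was -0.19 (95% interval -0.23 to -0.16, adjusted p = 4.88e-23) in the EJC-independent reporter, where 70% of the 20 amino acids passed the same test. It was -0.0042 in the EJC-enhanced reporter (-0.05 to 0.04, adjusted p = 0.862), where 15% of amino acids passed. The unadjusted means were 1.54 for cysteine and 1.73 for all other last codons in the EJC-independent reporter, and 2.28 and 2.29 in the EJC-enhanced reporter. On variants with TGG in place of the stop codon, the cysteine effect was -0.03 (adjusted p = 0.656) and -0.01 (adjusted p = 0.827), with 0% of amino acids called in either reporter. After subtraction of the matched TGG variant, cysteine stood -0.17 from the other amino acids in the EJC-independent reporter (-0.25 to -0.10, adjusted p = 7.83e-06, 75% of amino acids called) and 0.01 in the EJC-enhanced reporter (-0.06 to 0.09, adjusted p = 0.994, 0% called).

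Cysteine was the 6th lowest of 20 amino acids in the EJC-independent reporter. Tyrosine, with a phenol ring, was lowest at 1.42, followed by phenylalanine at 1.49, histidine at 1.49, glutamine at 1.51 and methionine at 1.53, and asparagine stood just above cysteine at 1.55. At the other end were serine at 1.80, threonine at 2.08 and glycine, which has no side chain, at 2.13. Against each of the other 19 amino acids in the fit, cysteine was lower than 13 and higher than 2 at an adjusted p under 0.05, where 77.9% of all 190 amino acid pairs passed. The 2 exceeded were phenylalanine, by 0.06 (adjusted p = 0.0201), and tyrosine, by 0.12 (adjusted p = 2.71e-05). Cysteine was not separated from histidine (difference 0.05, 95% interval -0.00051 to 0.09), methionine (0.0024, -0.08 to 0.08), asparagine (-0.01, -0.07 to 0.05) or glutamine (0.02, -0.03 to 0.08). The widest gaps were -0.59 to glycine and -0.55 to threonine.

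In the EJC-enhanced reporter cysteine was 11th from the lowest, in an order that ran only from 2.21 for methionine to 2.36 for aspartate. None of its 19 contrasts passed the linear fit with Benjamini-Hochberg adjustment, 1 had an unadjusted p under 0.05, and 3.16% of all amino acid pairs passed. That contrast was with aspartate, at -0.07 (adjusted p = 0.191). The intervals of the 19 contrasts reached no further than -0.14, in the contrasts with aspartate and asparagine, and 0.17, in that with methionine. Differences of the size seen against glycine or threonine in the EJC-independent reporter lie outside the corresponding EJC-enhanced intervals of -0.07 to 0.05 and -0.10 to 0.0065.

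Cysteine was below the other last codons at every depth of coverage in the EJC-independent reporter. Cysteine minus other last codons was -0.18 for variants with mean counts from 10 to 50, -0.24 from 50 to 100, -0.17 from 100 to 300, -0.19 from 300 to 1000 and -0.15 from 1000 upwards. The same bins gave cysteine minus other last codons in the EJC-enhanced reporter as -0.01, -0.0077, 0.0098, -0.04 and 0.09, the last with 21 cysteine variants.

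Some features of the window come with the cysteine codons by construction. A penultimate codon that ends in A gives ATG with the T and G of the cysteine codon, and with the penultimate codon ATG itself included, 19.2% of cysteine windows in the EJC-independent table and 21.6% in the EJC-enhanced table hold ATG, against 3.75% and 4.19% of windows with other last codons. In the EJC-independent reporter the cysteine variants with ATG averaged 1.49 (194 variants) and those without it 1.55 (819 variants). The EJC-enhanced reporter had 2.40 with ATG (265 variants) and 2.25 without it (964 variants). Without any window that holds ATG, the cysteine effect was -0.18 in the EJC-independent reporter and -0.03 in the EJC-enhanced reporter. A stop codon in another reading frame is absent from all 1013 and 1229 cysteine windows, whereas 8.97% and 9.92% of serine windows hold one, and 6.83% and 7.78% of windows with any last codon other than cysteine. The part of such stop codons in the contrasts was not tested.

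Cysteine and serine differ by sulfur against oxygen in the side chain. The serine codons TCT, TCC, AGT and AGC each differ from a cysteine codon by a single base, TCA and TCG by more. The serine mean and the fit cover all of these codons. In the EJC-independent reporter serine averaged 1.80 ± 0.55 (SD over 3256 variants), and cysteine minus serine was -0.25 in the fit (95% interval -0.30 to -0.21, adjusted p = 2.90e-30). Cysteine minus serine in the EJC-enhanced reporter was 0.017 (-0.04 to 0.07, adjusted p = 0.728). With TGG in place of the stop codon it was -0.02 (adjusted p = 0.920) and 0.0052 (adjusted p = 0.948). The difference in the EJC-independent reporter had a like size against both kinds of serine codon, at -0.28 against TCT and TCC and at -0.21 against AGT and AGC. TCA and TCG, the remaining serine codons, averaged 1.76 and 1.85 in that reporter.

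Exchange of the middle G of the cysteine codon for C, with all other bases kept, turned 970 cysteine variants into their serine counterparts in the EJC-independent reporter. Cysteine averaged 1.54 and serine 1.81 in these pairs, and cysteine was the lower one in 70.2%. For TGT against TCT the difference was -0.29 (SE 0.03, 444 pairs), and for TGC against TCC it was -0.24 (SE 0.03, 526 pairs). Exchange of the first base gave -0.27 for TGT against AGT (SE 0.05, 272 pairs) and -0.16 for TGC against AGC (SE 0.05, 368 pairs). The same exchanges before TGG gave 0.05 (SE 0.06, 161 pairs) for TGT against TCT and -0.09 (SE 0.04, 193 pairs) for TGC against TCC. Against AGT and AGC the values before TGG were 0.0068 (SE 0.08, 108 pairs) and 0.09 (SE 0.06, 128 pairs). Before a stop codon in the EJC-enhanced reporter these exchanges gave -0.06 (563 pairs), 0.07 (636 pairs), 0.06 (380 pairs) and 0.02 (504 pairs). Cysteine was the lower one in 48.9% of the 1199 middle-base pairs there.

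In the middle-base pairs, which hold only TCT and TCC of the serine codons, the gap to serine in the EJC-independent reporter was present before each stop codon and each following base. It was -0.30 (SE 0.04) before TGA, -0.22 (SE 0.04) before TAA and -0.27 (SE 0.04) before TAG. By the base after the stop codon it was -0.24 for A, -0.23 for C, -0.31 for G and -0.28 for T, with standard errors between 0.03 and 0.05. By penultimate amino acid, cysteine was the lower one for 19 of 20, and the exception was glutamate at 0.40 (SE 0.27, 13 pairs). The gap was widest behind histidine, at -0.48 (SE 0.10, 43 pairs), and glycine, at -0.47 (SE 0.16, 38 pairs), and behind proline it was -0.31 (SE 0.04, 95 pairs) with cysteine lower in 84.2% of pairs. Cysteine was the lower one in the EJC-enhanced reporter for 10 of 20 penultimate amino acids, with values from -0.70 behind asparagine (32 pairs) to 0.26 behind lysine (17 pairs). These splits describe the pairs and were not tested against each other.

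The other codons at 1 base from TGT and TGC ranged on both sides of cysteine in the EJC-independent reporter. For the pairs of codons that end in T or C, the cysteine pair was lower than 11 of the other 15 and higher than 2 in the fit, where 89.2% of all 120 contrasts between such pairs passed. Against the tyrosine codons TAT and TAC it was 0.12 higher, and against the phenylalanine codons TTT and TTC 0.06 higher (adjusted p = 0.0177). The difference was -0.31 against the arginine codons CGT and CGC, and -0.59 against the glycine codons GGT and GGC. Set against the tryptophan codon TGG as last codon, TGT differed by -0.17 (adjusted p = 0.000783) and TGC by -0.11 (adjusted p = 0.0351). Over all 119 contrasts of TGT and TGC with each other or with another sense codon, 7 were higher and 87 lower, where 68.7% of all codon pairs passed.

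The cysteine pair passed the linear fit in 0 of its 15 contrasts in the EJC-enhanced reporter, with 1 at an unadjusted p under 0.05, and 0% of all such contrasts passed. Of the 119 single codon contrasts 1 passed, with 20 at an unadjusted p under 0.05 and a background of 2.08%. In that contrast, named after its value was seen, TGC stood 0.23 above the arginine codon AGG (adjusted p = 0.0185).

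The 2 cysteine codons are synonymous and end the peptide on the same amino acid. TGC had the higher mean in both reporters, 1.57 over 543 variants and 1.50 over 470 variants with TGT in the EJC-independent reporter, and 2.33 over 648 and 2.23 over 581 in the EJC-enhanced reporter. In a fit over the cysteine stop variants alone TGC minus TGT was 0.06 in the EJC-independent reporter (adjusted p = 0.189) and 0.12 in the EJC-enhanced reporter (adjusted p = 0.0170), where 0% and 12.5% of the 16 synonymous pairs that end in C or T passed. In the fit over all stop variants TGC minus TGT was 0.06 (adjusted p = 0.151) and 0.10 (adjusted p = 0.311, over all codon pairs), and passed in neither reporter. With TGC and TGT behind the same penultimate codon counted as 1 unit, a choice made after seeing the data, the adjusted p was 0.612 and 0.327, so it passed in neither reporter. TGC was also the more deeply counted codon, with a median mean count of 246 against 175 for TGT in the EJC-independent reporter and 148 against 103 in the EJC-enhanced reporter. The authors' deposited table calls 84.2% of TGC and 77.4% of TGT variants higher under SMG1i in the EJC-independent reporter, and 87.9% and 82.9% in the EJC-enhanced reporter. The part of depth in these shares was not tested. Among all 61 sense codons, TGC was 15th and TGT 8th from the lowest in the EJC-independent reporter, and 55th and 10th in the EJC-enhanced reporter. In pairs that differ only in the cysteine codon, TGC minus TGT before a stop codon was 0.09 in both reporters. These were 393 pairs (SE 0.04) in the EJC-independent and 546 pairs (SE 0.04) in the EJC-enhanced reporter. Before TGG the matched difference was -0.02 (SE 0.07, 149 pairs) and -0.0024 (SE 0.05, 209 pairs). The matched differences were not tested.

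Behind cysteine, TGA gave the highest response of the 3 stop codons in the EJC-independent reporter. Mean responses were 1.65 over 337 variants with TGA, 1.51 over 334 with TAA and 1.46 over 342 with TAG. TGA exceeded TAA by 0.13 (95% interval 0.03 to 0.23, adjusted p = 0.0192) and TAG by 0.20 (0.11 to 0.29, adjusted p = 3.82e-05), and TAA minus TAG was 0.07 (adjusted p = 0.158). Of such contrasts over all 20 amino acids, 63.3% passed. The same contrasts behind the other amino acids were 0.15, 0.21 and 0.05, and those behind cysteine deviated from them by -0.02 (interval -0.12 to 0.08), -0.0054 (-0.09 to 0.08) and 0.02 (-0.08 to 0.11), with adjusted p of 0.948, 0.983 and 0.948. Behind cysteine in the EJC-enhanced reporter the means were 2.30 over 396 variants with TGA, 2.29 over 424 with TAA and 2.26 over 409 with TAG. None of these 3 contrasts passed the linear fit, none had an unadjusted p under 0.05, and 0% passed over all amino acids. The TGA values behind TGC and TGT were 2.34 and 2.25 there.

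No base after the stop codon passed the test behind cysteine. In the EJC-independent reporter the means were 1.63 with A, 1.52 with C, 1.50 with G and 1.53 with T, over 213, 303, 224 and 273 variants. A stood 0.13 above the other bases (95% interval 0.03 to 0.24), which had an unadjusted p of 0.0152 and an adjusted p of 0.101, and the other 3 bases had adjusted p-values from 0.415 to 0.804. The A effect passed with inverse variance weights, at 0.093, and turned to -0.018 after subtraction of the matched TGG variant. Over all amino acids 7.5% of such contrasts passed. The A effect behind cysteine deviated by 0.07 from that behind other amino acids (adjusted p = 0.741). With A, C, G and T the EJC-enhanced means were 2.32, 2.33, 2.24 and 2.25, and none of the 4 contrasts passed the linear fit or reached an unadjusted p under 0.05, with 0% called over all amino acids. Of the 12 combinations of stop codon and following base, TGA with A had the highest mean in the EJC-independent reporter, 1.75 over 70 variants, and TAG with C the lowest, 1.40 over 104. The ends in the EJC-enhanced reporter were TAG with A at 2.40 over 81 variants and TAG with G at 2.16 over 98.

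The codon ahead of cysteine was compared by amino acid. Each penultimate amino acid occurs with cysteine in only 2 to 12 contexts of 6 random bases, so the errors used here take the spread pooled over all cysteine contexts, a choice made after seeing the data. Histidine, with an imidazole ring, was the 1 amino acid that passed in the EJC-independent reporter, at -0.33 relative to the others (95% interval -0.53 to -0.13, adjusted p = 0.0267), where 7% of the 400 combinations of penultimate and last amino acid passed. The mean response behind histidine was 1.23 over 43 variants, and the matching 16 TGG variants averaged 0.0076. Glutamine had a like mean of 1.22 over 37 variants and a difference of -0.33 (adjusted p = 0.0558). Its 13 TGG variants were also low, at -0.32 (SD 0.49). Lysine, at 1.23 over 15 variants, and tryptophan, at 1.46 over 13, made up the lowest 4 in the linear fit, and the 6 lysine TGG variants were low too, at -0.38. The highest 4 in that fit were glutamate at 1.81 over 17 variants, asparagine at 1.70 over 29, isoleucine at 1.67 over 42 and alanine at 1.67 over 80, and none of these passed with the pooled spread. The order is that of the fit and not of these plain means, in which valine, at 1.67 over 57 variants, lies above isoleucine and alanine, and arginine, at 1.45 over 88, below tryptophan. The 10 TGG variants with asparagine averaged 0.46. After subtraction of the matched TGG variant asparagine turned to -0.50, glutamate to -0.36 and alanine to -0.019, whereas histidine stayed at -0.32. Glutamine and lysine kept their sign after that subtraction. The histidine effect differed from that next to other last codons by -0.25, with an unadjusted p of 0.0189 and an adjusted p of 0.299, and 0 of the 20 penultimate effects differed from their value next to other last codons after adjustment.

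None of the 20 penultimate amino acids passed with cysteine in the EJC-enhanced reporter, 2 had an unadjusted p under 0.05, and 0.25% of the 400 combinations passed. These 2 were asparagine, at -0.55 (adjusted p = 0.0699, mean 1.76 over 32 variants), and methionine, at -0.46 (adjusted p = 0.575, mean 1.83 over 18 variants). Cysteine itself, at 2.03 over 42 variants, and glutamate, at 2.06 over 25, made up the lowest 4. The highest 4 were alanine at 2.44 over 87 variants, threonine at 2.43 over 89, arginine at 2.41 over 115 and proline at 2.37 over 96. Histidine stood at 2.21 over 46 variants there, with a difference of -0.07 (interval -0.34 to 0.21). With errors that treat each context as its own unit, the count in the EJC-independent reporter was 4 penultimate amino acids above and 2 below the others, and in the EJC-enhanced reporter 2 above and 6 below, against 34.5% and 24.5% of all 400 combinations.

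The lower response with cysteine was tested directly for a difference between the reporters on the variants listed in both. The cysteine effect was -0.19 in the EJC-independent reporter and -0.02 in the EJC-enhanced reporter on these variants, and their difference was -0.17 (95% interval -0.24 to -0.11, adjusted p = 6.42e-07). Such a difference passed for 65% of the 20 amino acids. Cysteine minus serine differed between the reporters by -0.28 (-0.35 to -0.21, adjusted p = 3.07e-13), and against the 19 other amino acids 9 contrasts were lower and 2 higher in the EJC-independent reporter, where 63.7% of all amino acid pairs passed. The 2 were asparagine, at 0.14 (adjusted p = 0.0234), and tyrosine, at 0.17 (adjusted p = 0.000449). The contrast of TGA with TAG behind cysteine differed by 0.18 (0.03 to 0.34), which missed the threshold at an adjusted p of 0.0639 where 31.7% of such contrasts passed. TGC minus TGT differed by -0.04 (-0.13 to 0.06, adjusted p = 0.603, 12.5% passed).

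The 918 cysteine variants past the count minimum in both tables averaged 1.54 in the EJC-independent reporter and 2.33 in the EJC-enhanced reporter, and 83.4% of them had the lower value in the EJC-independent reporter. Over all 26171 shared stop variants the means were 1.72 and 2.33, and 79.2% had the lower value in the EJC-independent reporter. The tables were normalized separately, so this level difference rests on each table's own scaling, in which the cysteine TGG controls lay at -0.05 and 0.01. Over these 918 variants Pearson's r between the reporters was -0.03 and Spearman's rho -0.01, as a description over sequences that share libraries. Error of single variants limits such coefficients. Over all cysteine variants past the minimum the root mean square deposited standard error was 0.553 and 0.676, beside SDs of 0.61 and 0.78. The coefficients therefore cannot tell whether the 2 reporters share effects of context. Over all shared stop variants r was 0.0085.

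Single cysteine variants were taken as the 5 lowest and 5 highest per reporter among those that reached a mean count of 100 and an adjusted p below 0.05 in the authors' deposited table, 670 variants in the EJC-independent reporter and 682 in the EJC-enhanced reporter. Because that p excludes small responses, the lowest of them are the lowest that passed. The lowest in the EJC-independent reporter was tcgTGCtagc, serine TCG ahead of TGC and TAG, at 0.65 with a standard error of 0.21 in the authors' deposited table, and it had 2.32 in the EJC-enhanced reporter. The others were cctTGTtaag at 0.78, acgTGTtagc at 0.82, cttTGTtagt at 0.83 and tcaTGTtaac at 0.87 in the authors' deposited table. Of all 1013 cysteine variants past the count minimum, 470 have TGT and 337 have TGA. The shares among the 670 variants chosen from are not given here, and TGT was counted less deeply and called less often. Of the lowest 5, all have TAA or TAG as the stop codon and 4 have TGT. Their values for the EJC-enhanced reporter in the authors' deposited table spread from 0.55 for cttTGTtagt to 3.52 for tcaTGTtaac.

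The highest in the EJC-independent reporter was aggTGTtagc, at 3.19 with a standard error of 0.55 and a mean count of 117 in the authors' deposited table. The next were agcTGTtgat at 2.68, tcaTGCtgaa at 2.67, ataTGCtgag at 2.67 and gcgTGCtgaa at 2.66 in the authors' deposited table. Of the highest 5, 4 end on TGA and 3 have TGC, against 337 and 543 of all 1013 cysteine variants. The shares among the 670 variants chosen from are not given here and may differ. For these 4 TGA variants in the EJC-enhanced reporter the authors' deposited table gives 0.42, 1.34, 2.23 and 2.74, with standard errors of 1.72, 0.84, 0.66 and 0.80.

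The lowest of the EJC-enhanced reporter by the authors' deposited table were catTGTtagc at 1.20, tccTGTtaag at 1.26, tatTGTtaag at 1.28, gcgTGCtaat at 1.28 and actTGCtgat at 1.30. The first of these has histidine ahead of cysteine. In the EJC-independent reporter it was also low, at 0.30 with a standard error of 0.32 in the authors' deposited table. For the others, in the same order, the authors' deposited table gives 0.61, 1.65, 0.89 and 1.97 in that reporter. Their standard errors were 0.73, 0.29, 0.38 and 0.54. The highest by the authors' deposited table were gtgTGCtaag at 6.02 (standard error 1.00), gtcTGCtaaa at 5.09 (0.65), tcgTGCtagg at 4.28 (0.81), ttgTGCtaag at 4.27 (0.63) and agaTGCtaat at 4.17 (0.69). All 5 have TGC, as have 648 of all 1229 cysteine variants past the count minimum. The share among the 682 variants chosen from is not given here, and TGC was counted more deeply and called more often. Of the 5, 4 have TAA, and their mean counts lie between 102 and 219. Being picked by value, they may owe part of their height to error, which was not tested. The first 3 had 1.46, 1.83 and 1.39 in the EJC-independent reporter of the authors' deposited table, with standard errors of 0.18, 0.14 and 0.23.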

How the data were processed

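RNA from 12 libraries was compared between SMG1i and DMSO per reporter. Per the submitters' processing notes DESeq and DESeq2 were used; read processing and versions are not stated in the sources used here. Per the file headers, each of the 2 deposited tables gives per variant a mean normalized count (a signal over all libraries of the reporter), a log2 fold change and its error, the Wald score and the p-value, raw and adjusted. Depth per library is not known from them, and the deposited median standard error of a cysteine variant was 0.353 in the EJC-independent and 0.588 in the EJC-enhanced table. The numerator is not named. The sign of the log2 fold change deposited by the authors was reversed, and were the numerator the other treatment, every response would change sign.

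Fits took variants that reached a mean count of 10 and had no stop codon at bases 1 to 3 or 4 to 6. They were ordinary least squares fits (Python 3.11.15, numpy 2.4.6, pandas 2.3.3, scipy 1.17.1) with terms for penultimate codon, last codon, stop codon and base 10. Tests were two-sided, with standard errors clustered by the 6 random bases and Benjamini-Hochberg adjustment over 20 amino acids, 190 amino acid pairs, 1830 codon pairs, 120 pairs of codon pairs, 16 synonymous pairs, 60 stop codon contrasts, 80 contrasts of base 10 or 400 penultimate contrasts of a reporter. Standard errors of the exchanges between cysteine and serine codons, and between TGC and TGT, were not clustered. The scripts were tested on simulated data. There the clustered errors came out too small for penultimate amino acids and for TGC against TGT, so errors pooled over contexts, or clustered by penultimate codon, were added after seeing the data. The members, lists and named variants were chosen with earlier results of these data known. Named were both cysteine codons, all serine codons, the codons 1 base away, every stop codon and base 10, the 4 highest and 4 lowest penultimate amino acids, the single variants described, and the deepest complete context.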

Additional observations from a re-analysis of the deposited data

Results flagged for a closer look

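The cysteine effect differed between the reporters under the same contrast, by -0.17 for the EJC-independent minus the EJC-enhanced reporter on the variants listed in both tables. The effect was -0.19 in the EJC-independent reporter and -0.02 in the EJC-enhanced reporter, and the difference itself was tested in the linear fit (adjusted p = 6.42e-07).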

How the results depend on the processing

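No paired analysis was possible because the tables hold no value per library, and for the same reason no replicate could be left out and no other count test or scaling could be run. Over the alternatives, the cysteine effect in the EJC-independent reporter stayed between -0.21 and -0.16, cysteine minus serine between -0.28 and -0.21, and the difference of the effect between reporters between -0.19 and -0.17, each on the same side of the threshold where it was tested. Where values changed call or sign, the cause was not tested. TGC minus TGT in the EJC-independent reporter passed at a minimum count of 50 (0.084) and with inverse variance weights (0.069). In the EJC-enhanced reporter it no longer passed at a minimum of 50 (0.091), with those weights (0.049), on variants of both tables (0.092), after TGG subtraction (0.13), with errors clustered by penultimate codon (0.12) or with these and a minimum of 50 (0.091).

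Behind cysteine in the EJC-independent reporter, TAA minus TAG passed after TGG subtraction (0.12). With inverse variance weights the A effect at base 10 (0.093) and the C effect (-0.077) passed. After TGG subtraction the A (-0.018), G (0.045) and T (0.0022) effects changed sign, as did T on variants of both tables (0.0054). In the EJC-enhanced reporter, small values that did not pass changed sign. These were the cysteine effect after TGG subtraction (0.012), cysteine minus serine without ATG (-0.0099), base 10 C on variants of both tables (-0.025) and T after TGG subtraction (0.0046). TGA minus TAA turned to 0.052, 0.059, 0.024 and 0.018 at a minimum of 50, with weights, on variants of both tables and after TGG subtraction, and TAA minus TAG to -0.014, -0.0072 and -0.0027 in the first 3 of these.

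The number of penultimate amino acids that passed, 6 in the EJC-independent reporter, was 2 without ATG and 1 with pooled spread. In the EJC-enhanced reporter it was 8, and 4 on variants of both tables, 1 after TGG subtraction and 0 with pooled spread. Single effects that changed sign in the EJC-independent reporter were lysine at a minimum of 50 (0.14) and, after TGG subtraction, alanine (-0.019), asparagine (-0.50) and glutamate (-0.36). In the EJC-enhanced reporter they were glutamate at a minimum of 50 (0.080) and alanine after TGG subtraction (-0.11).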
